A study of Rattus norvegicus with 12 samples.

Results

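The genes followed here, 8 in number, act in amyloid clearance or carry endocytic risk for Alzheimer's disease: the peptidases Mme, Ide, Ece1 and Ece2, the endocytic and sorting genes Picalm, Bin1 and Sorl1, and the chaperone Clu. They were taken by symbol from a table of raw RNA counts of an Alzheimer's (AD) model, in which 7 of the 8 were found among 31177 rows. Sorl1 was not analysed here. The identifiers of the 7 are ENSRNOG00000009514 (Mme), ENSRNOG00000016833 (Ide), ENSRNOG00000014241 (Ece1), ENSRNOG00000001715 (Ece2), ENSRNOG00000018322 (Picalm), ENSRNOG00000012852 (Bin1) and ENSRNOG00000016460 (Clu). All 7 had enough counts to be tested, as did 18850 genes in all. The 12 libraries form 3 groups of 4, namely AD-HFD (the model on a high-fat diet), AD (the model without it) and the control group Sham. Both AD groups carry the model, and a diet group without the model was not analysed here. How the model was made, the diet's length, and the strain, sex, age and brain region of the animals are not given in the sources used here. Labels speak of mice, but the organism is given as Rattus norvegicus and the table uses rat gene IDs, so the samples were treated as rat. Whether each library is its own animal is not stated, so the p-values cover the spread among these libraries, which may be technical.

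Amyloid-beta peptides are cut from the amyloid precursor protein and are removed from brain by breakdown and by uptake. Neprilysin (Mme), insulin-degrading enzyme (Ide) and the endothelin-converting enzymes (Ece1, Ece2) are zinc metallopeptidases that can break the peptides down, Mme at the cell surface and the others largely inside cells or in the secretory and endosomal system. Picalm, Bin1, Sorl1 and Clu are best known as genes near which common human variants are linked to the risk of late-onset Alzheimer's disease. Picalm helps assemble clathrin-coated vesicles, Bin1 bends membranes, Sorl1 sorts the precursor protein between endosome and Golgi, and Clu is a secreted chaperone that binds the peptide.

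The promoters of Ece1, Picalm and Ide are shown because these 3 genes were higher in AD-HFD than in Sham. Each is the 250 bases before the gene's annotated start, 5′ to 3′ on the gene's strand, from the RefSeq table of build GRCr8, in which 7 of the 8 genes had an entry. Capitals mark each match to the GC box letters GGGCGG on either strand.
Ece1 (chr5:155360781-155361030, plus strand): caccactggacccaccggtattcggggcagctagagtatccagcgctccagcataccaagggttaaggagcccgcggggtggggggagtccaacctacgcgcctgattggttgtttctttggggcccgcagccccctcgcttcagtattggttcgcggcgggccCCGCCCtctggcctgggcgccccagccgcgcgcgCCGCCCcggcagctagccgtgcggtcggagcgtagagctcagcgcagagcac
Picalm (chr1:153469047-153469296, plus strand): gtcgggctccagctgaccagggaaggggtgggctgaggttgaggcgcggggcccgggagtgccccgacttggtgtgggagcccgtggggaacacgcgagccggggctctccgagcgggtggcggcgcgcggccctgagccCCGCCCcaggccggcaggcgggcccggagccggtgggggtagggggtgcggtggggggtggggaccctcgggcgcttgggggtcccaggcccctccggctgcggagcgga
Ide (chr1:244514527-244514776, minus strand): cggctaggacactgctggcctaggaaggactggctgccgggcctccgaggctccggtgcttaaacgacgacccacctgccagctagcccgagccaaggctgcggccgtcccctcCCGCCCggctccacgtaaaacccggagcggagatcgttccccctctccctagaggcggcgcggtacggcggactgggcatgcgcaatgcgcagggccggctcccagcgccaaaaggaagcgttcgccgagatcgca
The Ece1 window held 2 such matches, and the Picalm and Ide windows 1 each. Among 33469 RefSeq promoter windows of the same length, 30.5% held at least 1 match. The 3 windows had a G and C content of 69.2%, 79.2% and 69.2% in the order printed, against a median of 51.2% over all windows. The windows of Mme, Ece2 and Bin1, which were not called, had 70.4%, 76.4% and 69.6%, with 2, 1 and 5 GC box matches. Searched the same way, CCAAT matched 2 times in Ece1 and not in Picalm or Ide (34% of all windows held it), and TATAAA matched in none of the 3 (12.9% of all windows held it). A match is a run of letters and was not measured as a binding site.

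Total counts ran from 26668974 to 35351792 per library. The members took 0.142% to 0.347% of them, from 20 counts for Mme in AD-HFD-3 to 61550 for Clu in AD-HFD-2. Each library goes by its group and replicate (AD-3 is the AD library of replicate 3). Levels are in CPM, counts scaled to each library's TMM-adjusted total, and are compared between libraries and not between genes. Differences are log2 fold changes ± SE from edgeR's quasi-likelihood fit over all 12 libraries, with a call where the p, adjusted by Benjamini-Hochberg over all genes tested, was under 0.05. The libraries differed in tissue make-up within their groups and between them. For 10 thalamus markers the log2 CPM averaged 1.47 to 2.11 in AD-HFD libraries, 1.44 in AD-3, 4.10 to 6.21 in the rest of AD, and 1.3 to 2.23 in Sham libraries. For 12 cerebral cortex markers it averaged 4.03 to 6.24 in AD-HFD libraries, 5.28 in AD-3, 1.33 to 2.52 in the rest of AD, and 6.31 to 6.61 in Sham libraries. The 14 choroid plexus markers averaged 6.91 in AD-HFD-1, 2.90 in AD-HFD-2, 6.11 in Sham-2 and 5.51 in Sham-3, with no other library above 0.29. Hypothalamus markers, 12 in number, averaged 4.70 in AD-4 and at most 0.59 in any other library. The 9 endothelium markers averaged 8.32 in AD-HFD-4, 5.17 to 6.78 in the other AD-HFD libraries, 5 to 5.61 in AD and 4.62 to 4.83 in Sham. The 15 neuron markers averaged 6.75 to 8.71 in AD-HFD, 8.47 to 8.82 in AD and 8.86 to 9.18 in Sham. In bulk tissue, fewer cells of a type and less RNA per cell cannot be told apart.

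**Figure D1:**
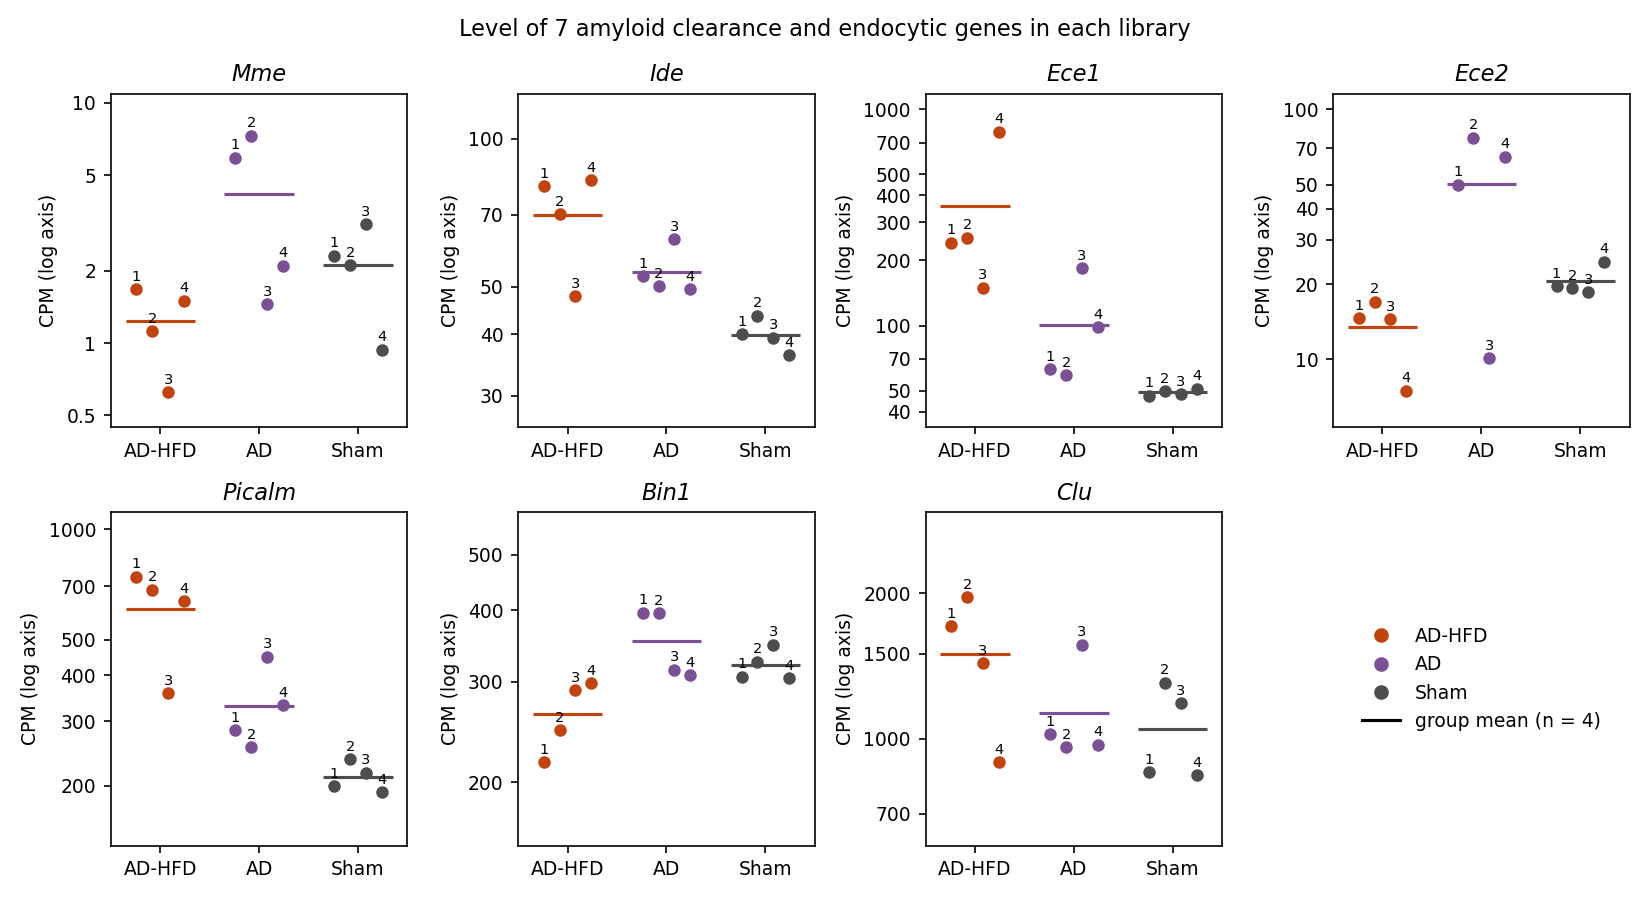
Level of each gene in CPM (log axis) in the 12 libraries, with the AD-HFD, AD and Sham groups from left to right, the replicate number at each point and a line at the group mean (n = 4). Ece1 ran from 149.6 to 789.5 CPM in AD-HFD, and Ece2 had 49.9 to 77.1 CPM in AD, save for AD-3 with 10.1 CPM.

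Ece1, which cuts the vasoconstrictor precursor big endothelin and is abundant in endothelium, differed most among the members. It stood at 242, 255, 149.6 and 789.5 CPM in AD-HFD-1 to AD-HFD-4, at 62.6, 58.8, 184 and 98.2 CPM in AD-1 to AD-4, and at 47.4, 49.7, 48.0 and 51.0 CPM in Sham-1 to Sham-4. The Sham libraries lay close together while AD-HFD-4 was far above its own group, and every AD-HFD and AD library exceeded every Sham library. Ece1 was higher in AD-HFD than in Sham by 2.87 ± 0.51 (adjusted p = 0.00366), with means of 359 ± 291 CPM in AD-HFD and 49.0 ± 1.62 CPM in Sham (SD, n = 4 each; edgeR). Without AD-HFD-4 the log2 difference was 2.14 (adjusted p = 0.00491), still called. Against AD, at 101 ± 58.3 CPM (SD, n = 4), the difference of AD-HFD was 1.83 ± 0.489 and did not pass (adjusted p = 0.0614). That difference was 1.09 without AD-HFD-4 (adjusted p = 0.157) and 2.29 without AD-3, where it was called (adjusted p = 0.00776). AD against Sham gave 1.04 ± 0.481 (adjusted p = 0.211) although the ranges did not overlap, and 0.58 without AD-3 (adjusted p from 0.0698 to 0.451 over the fits that left out 1 library).

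Ece2, the relative of Ece1 that works in acidic compartments and is found mainly in neural tissue, ran differently. It stood at 14.6, 17.0, 14.5 and 7.49 CPM in AD-HFD-1 to AD-HFD-4, at 49.9, 77.1, 10.1 and 64.6 CPM in AD-1 to AD-4, and at 19.6, 19.2, 18.5 and 24.6 CPM in Sham-1 to Sham-4. The AD libraries other than AD-3 were above all the rest and AD-3 was below every Sham library. Ece2 in AD-HFD against AD differed by -1.91 ± 0.469 and missed the threshold (adjusted p = 0.0605), with means of 13.4 ± 4.10 CPM in AD-HFD and 50.4 ± 29.1 CPM in AD (SD, n = 4 each; edgeR). Without AD-3 it fell by 2.25 (adjusted p = 0.000523), and with AD-3 as the AD library left, which is then assumed to vary like the other groups, the value was 0.40 (adjusted p = 0.758). AD against Sham gave 1.3 ± 0.459 (adjusted p = 0.111), 1.64 without AD-3 (adjusted p = 0.00242) and -1.02 with AD-3 alone. The AD-HFD range lay below the Sham range, yet the difference of -0.61 ± 0.459 did not pass (adjusted p = 0.318; 20.5 ± 2.78 CPM in Sham, SD, n = 4). Ece2 overlaps a lncRNA locus in the RefSeq annotation.

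The balance of counts between the converting enzymes differed among libraries. Ece1 had 10.3 to 105 times the counts of Ece2 in AD-HFD, the highest in AD-HFD-4. The ratio was 18.2 for AD-3, 0.762 to 1.52 for the rest of AD, and 2.07 to 2.60 for Sham. Gene length was not divided out, so the ratio is compared between libraries and does not say which enzyme's RNA was more abundant.

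Ide, a cytosolic peptidase that degrades insulin as well as amyloid-beta, showed smaller differences in a like order of groups. Its level was 80.1, 70.2, 47.9 and 82.3 CPM in AD-HFD-1 to AD-HFD-4, 52.5, 50.1, 62.4 and 49.4 CPM in AD-1 to AD-4, and 40.1, 43.7, 39.4 and 36.3 CPM in Sham-1 to Sham-4. AD-HFD-3 lay below every AD library, and all AD-HFD and AD libraries lay above the Sham libraries. Ide was higher in AD-HFD than in Sham by 0.81 ± 0.17 (adjusted p = 0.00618), with means of 70.1 ± 15.7 CPM in AD-HFD and 39.9 ± 3.03 CPM in Sham (SD, n = 4 each; edgeR). Neither the value against AD of 0.39 ± 0.169 (adjusted p = 0.146) nor that of AD against Sham, 0.43 ± 0.169 (adjusted p = 0.151), passed. Without AD-HFD-3 both were called, at 0.53 (adjusted p = 0.0146) and 0.43 (adjusted p = 0.0444). In the RefSeq annotation Ide overlaps Kif11, a mitotic motor gene, and since the strand setting of the counting is not given, their shared reads could not be told apart.

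Mme, the cell-surface peptidase regarded as the main amyloid-beta-degrading enzyme of rodent brain, had few counts, 20 to 250 per library. In the RefSeq annotation Mme overlaps the pseudogene Eif5-ps3 and a snoRNA locus. It stood at 1.68, 1.12, 0.625 and 1.5 CPM in AD-HFD-1 to AD-HFD-4, at 5.92, 7.29, 1.45 and 2.10 CPM in AD-1 to AD-4, and at 2.31, 2.11, 3.13 and 0.937 CPM in Sham-1 to Sham-4. AD-1 and AD-2 were above all other libraries, and otherwise the groups overlapped. AD-HFD against AD gave -1.78 ± 0.545 (adjusted p = 0.072), with means of 1.23 ± 0.465 CPM in AD-HFD and 4.19 ± 2.86 CPM in AD (SD, n = 4 each; edgeR). Without AD-3 it fell by 2.07 (adjusted p = 0.0112), and with AD-3 as the AD library left the value was -0.25 (adjusted p = 0.915). The other differences did not pass: 0.99 ± 0.517 for AD against Sham (adjusted p = 0.271) and -0.79 ± 0.562 for AD-HFD against Sham (adjusted p = 0.29), the first being -0.56 with AD-3 as the AD library left.

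Picalm, the clathrin assembly protein expressed in many cell types and strongly in endothelium, was the member with the smallest p in AD-HFD against Sham. It stood at 744, 685, 357 and 638 CPM in AD-HFD-1 to AD-HFD-4, at 283, 255, 449.6 and 331 CPM in AD-1 to AD-4, and at 199.7, 236, 217 and 192 CPM in Sham-1 to Sham-4. AD-HFD-1, AD-HFD-2 and AD-HFD-4 lay above every AD library, AD-HFD-3 lay between AD-4 and AD-3, and all Sham libraries lay below both AD groups. Picalm was higher in AD-HFD than in Sham by 1.52 ± 0.238 (adjusted p = 0.00261), with means of 606 ± 172 CPM in AD-HFD and 211 ± 19.6 CPM in Sham (SD, n = 4 each; edgeR). AD-HFD against AD gave 0.88 ± 0.235 (adjusted p = 0.0614; 329.7 ± 85.8 CPM in AD, SD, n = 4), which was called at 1.06 when either AD-3 (adjusted p = 0.00791) or AD-HFD-3 was left out (adjusted p = 0.006). AD against Sham gave 0.64 ± 0.234 (adjusted p = 0.12), called without AD-HFD-3 (0.64, adjusted p = 0.0355). Snap91, the neuronal relative of Picalm in clathrin assembly and chosen here after its values were seen, stood at 282 ± 181 CPM in AD-HFD and 476 ± 34.4 CPM in Sham (SD, n = 4 each; log2 -0.75 ± 0.334, adjusted p = 0.0987 by edgeR).

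Bin1, a membrane-curving protein with neuronal and oligodendrocyte forms that these counts per gene cannot separate, spanned a 1.83-fold range over the 12 libraries, the smallest of the members. Its level was 217, 247, 289.7 and 298 CPM in AD-HFD-1 to AD-HFD-4, 396, 395, 315 and 308 CPM in AD-1 to AD-4, and 306, 325, 348 and 304 CPM in Sham-1 to Sham-4. All AD-HFD libraries lay below all AD and all Sham libraries. The differences of -0.43 ± 0.146 against AD (adjusted p = 0.0884) and -0.29 ± 0.146 against Sham (adjusted p = 0.146) did not pass by edgeR. The first was called, at -0.48 each time, when AD-3 (adjusted p = 0.0347) or AD-HFD-3 (adjusted p = 0.0372) was left out. AD against Sham gave 0.14 ± 0.146 (adjusted p = 0.6). Bin1 overlaps an uncharacterised protein-coding locus in the RefSeq annotation.

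Clu, secreted in brain mainly by astrocytes and also made in ependyma and choroid plexus, had overlapping groups in each comparison. It stood at 1709, 1962, 1432 and 895 CPM in AD-HFD-1 to AD-HFD-4, at 1024, 962, 1565 and 973 CPM in AD-1 to AD-4, and at 854, 1306, 1186 and 842 CPM in Sham-1 to Sham-4. AD-3 stood above the rest of its group, and AD-HFD-4 below the rest of its own. None of the differences passed by edgeR: 0.52 ± 0.268 for AD-HFD against Sham (adjusted p = 0.152), 0.41 ± 0.268 for AD-HFD against AD (adjusted p = 0.319) and 0.11 ± 0.267 for AD against Sham (adjusted p = 0.838). Without AD-3 the last was -0.09 (adjusted p = 0.868). The means were 1499 ± 458 CPM in AD-HFD, 1131 ± 290.5 CPM in AD and 1047 ± 235 CPM in Sham (SD, n = 4 each). Clu overlaps the annotated scavenger receptor gene Scara3 and the pseudogene Ppp2r1a-ps1.

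**Figure D2:**
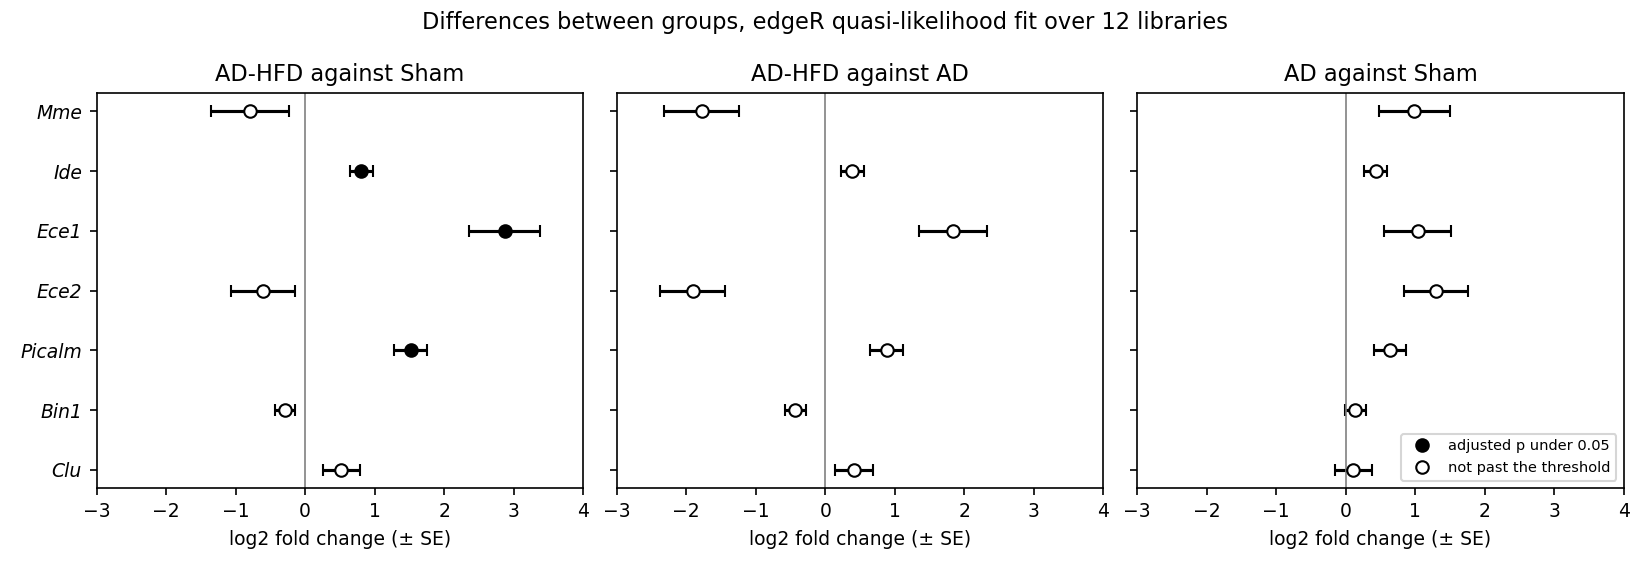
Log2 fold change ± SE of each gene in the 3 comparisons, from edgeR's fit over 12 libraries; filled points passed an adjusted p of 0.05. Ece1, Picalm and Ide are filled for AD-HFD against Sham, at 2.87, 1.52 and 0.81, and no point is filled in the other comparisons.

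AD-HFD was compared with Sham, the comparison in which the model and the diet differ together. Cerebral cortex marker means differed there too, at 4.03 to 6.24 log2 CPM in AD-HFD and 6.31 to 6.61 in Sham. The part of tissue make-up was not tested. Of the 7 members 3, Ece1, Picalm and Ide, rose and none fell. Of all genes tested 32.7% were called in this comparison, 19.7% higher and 12.9% lower. The same 3 members passed at an adjusted p under 0.1 (43.9% of all genes) and at an unadjusted p under 0.05 (45.4% of all genes). Of the 7 members 5 had ranges that did not overlap, Ece1, Picalm and Ide higher and Ece2 and Bin1 lower, against 35.1% of all genes, 18.9% higher and 16.2% lower. The members' median log2 fold change was 0.52, beside 0.03 over all genes tested. Each of the 3 calls was kept in all 12 fits that left out 1 library (adjusted p 0.000189 to 0.025) and by DESeq2, which called 32.4% of all genes. They were not kept when Sham-2, Sham-3, AD-HFD-1 and AD-HFD-2, the libraries with choroid plexus markers, were left out. No gene of the whole table was then called, and the 3 values were 3.23, 1.32 and 0.74 (adjusted p 0.176 to 0.215).

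AD-HFD was compared with AD to set the diet within the model. EdgeR called none of the 7 members, while 5 had an adjusted p under 0.1 and 6 an unadjusted p under 0.05. Of all genes 0.0106% were called (0.0106% higher, 0% lower), 18.2% had an adjusted p under 0.1 and 30.5% an unadjusted p under 0.05. DESeq2 called 5 members: Ece1 (1.81) and Picalm (0.85) higher, and Mme (-1.81), Ece2 (-1.95) and Bin1 (-0.46) lower, with adjusted p from 0.00235 to 0.0274, against 16.5% of all genes that DESeq2 called. EdgeR called the same 5 without AD-3. Without AD-HFD-3 it called 5 as well, with Ide in place of Mme, and those 2 fits called 30.3% and 27.6% of all genes. Bin1 was the 1 member with ranges that did not overlap, lower in AD-HFD, against 5.46% of all genes, 2.72% higher and 2.74% lower. The members' median was 0.39, beside 0.04 over all genes.

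AD was compared with Sham, groups that differ in the model. Their cerebral cortex marker means also differed, at 1.33 to 5.28 log2 CPM in AD and 6.31 to 6.61 in Sham. The model and brain region cannot be told apart here, and the part of region was not tested. EdgeR called 0 of the 7 members, against 6.23% of all genes (3.07% higher, 3.16% lower). Of the members 3 had an unadjusted p under 0.05, as did 24% of all genes, and none had an adjusted p under 0.1, as 12.4% of all genes had. DESeq2 called 1, Ece2 (1.32, adjusted p = 0.0489), against 12% of all genes. The fit without AD-3 also called 1 (Ece2; 12.1% of all genes) and that without AD-HFD-3 called 2 (Ide and Picalm; 11.8% of all genes). All 7 log2 fold changes were above 0, with a median of 0.64 beside 0.06 over all genes. Ece1, Picalm and Ide had ranges that did not overlap, all higher in AD, against 21.6% of all genes, 10.3% higher and 11.3% lower. AD-HFD and AD were each set against the same Sham libraries, and AD stands in 2 of the 3 comparisons, so these comparisons are not independent of each other.

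**Figure D3:**
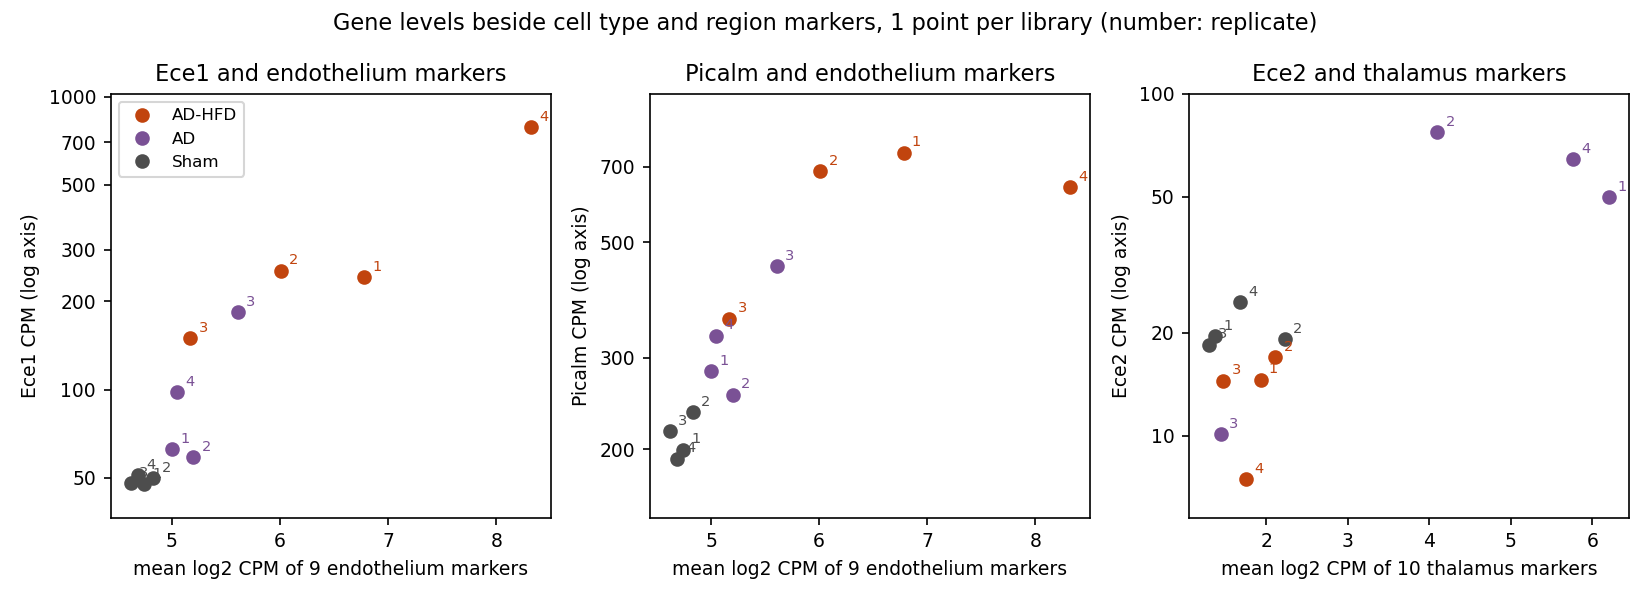
Level in CPM (log axis) of Ece1 and Picalm against the mean log2 CPM of 9 endothelium markers, and of Ece2 against that of 10 thalamus markers, 1 point per library with its replicate number. AD-HFD-4 has the highest endothelium mean (8.32) and the highest Ece1 (789.5 CPM), and the AD libraries other than AD-3 have both the highest thalamus means and the highest Ece2. Picalm is highest in AD-HFD-1 (744 CPM, endothelium mean 6.78) and lower in AD-HFD-4 (638 CPM).

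Markers of cell types and regions moved with several members. Over all genes tested, 19.7% were called higher and 12.9% lower in AD-HFD against Sham. In AD against Sham those shares were 3.07% and 3.16%. Of 9 endothelium markers tested, 8 rose in AD-HFD against Sham and none fell (median 2.63), with the transporter gene Slco1a4 the exception (log2 -0.63 ± 0.681, adjusted p = 0.496 by edgeR). No endothelium marker was called in the other comparisons, where the medians were 2.19 against AD and 0.67 in AD against Sham. The endothelial receptor gene Kdr, picked as an example from that list, stood at 127, 54.8, 29.3 and 347 CPM in AD-HFD-1 to AD-HFD-4. Its level was 11.8, 14.9, 50.6 and 17.4 CPM in AD-1 to AD-4 and 10.1 to 15.4 CPM in Sham. Kdr was thus highest in AD-HFD-4 and, within AD, in AD-3, as Ece1 was. Slco1a4 was instead lowest in AD-3 within AD (7.14 CPM, against 40.2 to 69.3 CPM), the only marker of the list not highest there. Picalm too was highest in AD-3 within AD. Within AD-HFD it did not follow the endothelium mean, at 638 CPM in AD-HFD-4 (mean 8.32) and 744 CPM in AD-HFD-1 (mean 6.78). All 6 red blood cell markers tested rose in AD-HFD against Sham, with list means of 2.89 to 6.81 log2 CPM in AD-HFD, 3.07 to 4.13 in AD and 2.25 to 3.27 in Sham. Of 15 neuron markers 10 fell in that comparison. Of 16 microglia markers 8 rose and 2 fell, with list means of 4.36 to 5.09 log2 CPM in AD-HFD, 4.39 to 4.61 in AD and 4.02 to 4.16 in Sham, and 4 rose in AD against Sham. Of 12 pericyte and smooth muscle markers 7 rose in AD-HFD against Sham and none fell, with means of 4.06 to 5.30 in AD-HFD, 3.96 to 4.50 in AD and 3.59 to 3.97 in Sham. Of 11 leptomeninges markers 7 rose there and none fell, with means of 3.70 to 5.98 in AD-HFD, 2.38 to 3.71 in AD and 2.97 to 4.60 in Sham. The part of these cell types in the values of Ece1, Picalm and Ide was not tested.

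Of 10 thalamus markers 7 rose in AD against Sham and none fell. Their mean was highest in the same libraries as Ece2. Among these, Ece2 was highest in AD-2 (77.1 CPM) and the thalamus mean in AD-1 (6.21, against 4.10 in AD-2). Single markers differed in AD-2. Prkcd stood there at 8.96 CPM (20 to 67.7 CPM in Sham) and Zic1 at 8.26 CPM (6.78 to 58.6 CPM in Sham), while Calb2 was highest there at 213 CPM. The part of brain region in the Ece2 and Mme values was not tested. Oligodendrocyte markers averaged 9.12 and 8.92 log2 CPM in AD-2 and AD-1, the libraries with the highest Bin1. They averaged 6.66 to 8.79 in AD-HFD, where Bin1 was lowest, 7.42 to 9.12 over AD and 7.20 to 8.35 in Sham. Within AD-HFD it went otherwise. AD-HFD-1 had the highest oligodendrocyte mean (8.79) and the lowest Bin1 (217 CPM), and AD-HFD-3 the lowest mean (6.66) with 289.7 CPM of Bin1. Astrocyte markers averaged 6.36 in AD-HFD-4 and 6.81 to 7.24 in the other AD-HFD libraries, and Clu was lowest of that group in AD-HFD-4. In AD-3, where Clu was highest within AD, the astrocyte mean was the lowest of its group at 6.48, against 7.51 to 7.92. All markers of that list but Gfap, Slc1a3 and Slc1a2 were lowest in AD-3 within AD. Gfap, a filament gene of reactive astrocytes chosen after its values were seen, ran against the list mean there and was highest in AD-3. Within AD-HFD it was lowest in AD-HFD-4. It stood at 252 CPM in AD-HFD-4 and 1874 to 3893 CPM in the rest of AD-HFD, at 2519.9 CPM in AD-3 and 473 to 1228 CPM in the rest of AD, and at 212 to 478 CPM in Sham. Choroid plexus markers were high in Sham-2 and Sham-3, which had more Clu (1306 and 1186 CPM) than Sham-1 and Sham-4 (854 and 842 CPM). Elsewhere the order differed. AD-3 and AD-HFD-3, with choroid plexus means of -0.18 and -0.38 log2 CPM, had 1565 and 1432 CPM of Clu. AD-HFD-1 had a higher choroid plexus mean than AD-HFD-2 (6.91 against 2.90) but less Clu (1709 against 1962 CPM). The part of these cell types in the Clu values was not tested.

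Lists of related genes, 5 in number, were examined beside the members. Their counts are to be read beside the shares over all genes, 19.7% higher and 12.9% lower in AD-HFD against Sham. In AD against Sham those shares were 3.07% and 3.16%. List counts in fits without 1 library are to be read beside the count over all genes, which moved as well. In AD-HFD against Sham it was 6162 with all libraries, from 3514 without Sham-1 to 8615 without AD-HFD-3. In AD against Sham it was 1174, from 302 without Sham-1 to 2329 without AD-3. Among 11 other amyloid-degrading proteases and their regulators, 5 rose in AD-HFD against Sham and none fell (median 0.69, beside 0.03 over all genes). They were tissue plasminogen activator Plat (2.69 ± 0.48, adjusted p = 0.00369; 338 ± 239 CPM in AD-HFD and 52.4 ± 7.10 CPM in Sham), its relative Plau (4.91 ± 1.26), the matrix proteases Mmp14 (2.18 ± 0.497) and Mmp9 (3.28 ± 1.12) and the lysosomal protease Ctsb (1.15 ± 0.285). The risers numbered 4 without any 1 of the Sham libraries, AD-HFD-1, AD-HFD-2 or AD-HFD-4, and 6 without AD-HFD-3. Of the list 1 gene fell as well without AD-3 and in the fit of the compared groups alone (5 rose and 1 fell in each) and by DESeq2 (4 rose and 1 fell). None was called in the other comparisons, where Plat gave 1.57 ± 0.461 (AD-HFD against AD, adjusted p = 0.0667) and 1.12 ± 0.457 (AD against Sham, adjusted p = 0.16). Plat, which endothelium releases, stood at 696 CPM in AD-HFD-4, at 212 to 224 CPM in the other AD-HFD libraries and at 227 CPM in AD-3.

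Of 4 tested relatives of Mme and Ide in the M13 and M16 peptidase families, 1 rose in AD-HFD against Sham. Without AD-HFD-3, 5 were tested and 3 of them rose. Ecel1, an M13 member of the nervous system named for its likeness to the converting enzymes, rose by 3.21 ± 0.598 in AD-HFD against Sham (adjusted p = 0.00417) and by 3.26 ± 0.6 in AD against Sham (adjusted p = 0.0117). It averaged 34.7 ± 18.1 CPM in AD-HFD, 35.8 ± 32.1 CPM in AD and 3.74 ± 1.05 CPM in Sham (SD, n = 4 each), and both ranges lay above Sham. Within AD it stood at 19, 12.9 and 28.4 CPM in AD-1 to AD-3 and at 83 CPM in AD-4, the library with hypothalamus markers, whose part was not tested. Without AD-4 it rose by 2.43 in AD against Sham (adjusted p = 0.0219), and the call held in each fit without 1 library in both comparisons. Mmel1, the closest relative of Mme, stood at 2.45 ± 1.04 CPM in AD-HFD, 8.82 ± 6.60 CPM in AD and 6.70 ± 0.314 CPM in Sham. Its log2 values in AD-HFD, -1.84 ± 0.531 against AD (adjusted p = 0.0646) and -1.44 ± 0.53 against Sham (adjusted p = 0.0544), did not pass.

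Clathrin endocytosis, the machinery in which Picalm and Bin1 work, had 28 genes tested. Of these 5 rose and 8 fell in AD-HFD against Sham (median -0.12), beside 19.7% and 12.9% of all genes. The genes with the smallest p that rose were Rin3 (3.06 ± 0.47), a Rab5 activator, the cargo adaptor Dab2 (2.75 ± 0.509), Cd2ap (1.81 ± 0.364), an adaptor at the actin cytoskeleton, and the broadly expressed dynamin Dnm2 (0.81 ± 0.184). Those that fell included Fcho1 (-1.24 ± 0.265), an early pit protein, and Amph (-1.43 ± 0.353), the neuronal relative of Bin1. Rin3 also rose in AD against Sham (2.03 ± 0.46, adjusted p = 0.0266; 10.6 ± 2.76 CPM in AD and 2.59 ± 0.53 CPM in Sham, SD, n = 4 each), as the 1 gene of the list called there. No gene of the list was called in AD against Sham without any 1 of the Sham libraries, AD-2 or AD-4, and 2 rose and 1 fell without AD-HFD-3. The count of 8 that fell was 3 without Sham-1, Sham-3, Sham-4 or AD-HFD-1, 4 without AD-HFD-2 or AD-HFD-4, 5 without AD-4 and 12 without AD-HFD-3.

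Of 17 retromer and sorting receptor genes, the group in which Sorl1 works, 2 rose and 3 fell in AD-HFD against Sham, and 2 fell in AD against Sham. Over all genes 19.7% rose and 12.9% fell in the first comparison, and 3.16% fell in the second. Sortilin, Sort1, a sorting receptor of the Sorl1 family, fell by 1.03 in AD-HFD against Sham (SE 0.189, adjusted p = 0.00397) and by 0.94 in AD against Sham (SE 0.188, adjusted p = 0.0168). It averaged 386 ± 99.8 CPM in AD-HFD, 409 ± 71.2 CPM in AD and 788 ± 42.2 CPM in Sham (SD, n = 4 each). The retromer subunit Vps29 also fell in both, to 67.4 ± 8.56 CPM in AD-HFD and 62.3 ± 5.77 CPM in AD, against 102 ± 9.05 CPM in Sham. Vps26b (-0.47 ± 0.124) fell and the sorting nexins Snx6 (0.73 ± 0.191) and Snx1 (0.42 ± 0.146) rose in AD-HFD against Sham. The risers numbered 0 without Sham-4, 1 without any 1 of the other Sham libraries, AD-1, AD-4, AD-HFD-1, AD-HFD-2 or AD-HFD-4, and 4 without AD-HFD-3. The fallers there numbered 6 without AD-HFD-3 and 2 without Sham-4 or Sham-1, and those of AD against Sham 1 without Sham-1, Sham-4 or AD-4 and 4 without AD-HFD-3.

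Among 12 uptake receptors and carriers 4 rose in AD-HFD against Sham and none fell, in each of the 12 fits that left out 1 library. Among them were the protease-binding carrier A2m (3.24 ± 0.626), the lipid exporter Abca1 (0.84 ± 0.199) and the receptor Ager (1.17 ± 0.296). Lrp2, a large endocytic receptor of choroid plexus and some neurons, rose in AD against Sham (1.96 ± 0.498, adjusted p = 0.0402; 5.67 ± 4.57 CPM in AD and 1.47 ± 0.443 CPM in Sham, SD, n = 4 each). No gene of the list was called there without any 1 of the Sham libraries, AD-HFD-1, AD-4, AD-2 or AD-1. Without AD-3, 3 rose, without AD-HFD-4, 4 rose, and without AD-HFD-3, 4 rose and 1 fell. Of all genes in that comparison, 12.1% were called without AD-3, 11.8% without AD-HFD-3 and 1799 of 19255 without AD-HFD-4. No gene of these 5 lists was called by edgeR in AD-HFD against AD, where the list medians ran from -0.10 to 0.94. Without AD-HFD-3, 5 proteases rose, 4 clathrin genes rose and 8 fell, 2 retromer genes rose and 2 fell, 2 uptake genes rose and 2 fell, and 1 relative of Mme and Ide fell. Without AD-3, 5 proteases rose and 1 fell, 4 clathrin genes rose and 1 fell, 1 retromer gene rose, 1 uptake gene fell, and 1 relative of Mme and Ide rose and 1 fell. DESeq2 called 5 proteases higher and 1 lower there, 3 clathrin genes higher and 1 lower, 2 uptake genes higher and 1 lower, 1 retromer gene higher and 1 relative of Mme and Ide lower. Over all genes, 27.6% were called without AD-HFD-3, 30.3% without AD-3 and 16.5% by DESeq2.

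The genes whose pattern was most like each member were sought among 13147 others by the root mean square difference of log2 CPM over the 12 libraries, each gene centred on its own mean. For Ece1 they were the laminin chain Lamc1 (0.143) and Cmtm6 (0.163), beside an SD of 1.3 of Ece1 itself. Lamc1 averaged 187 CPM in AD-HFD, 51.2 CPM in AD and 27.1 CPM in Sham. For Picalm they were the actin-binding protein gene Twf1 (0.146) and the kinase gene Ripk2 (0.166), beside an SD of 0.707 of Picalm. For Ide they were Uxt (0.0891) and Ubap1 (0.0956), and for Bin1 Zhx3 (0.109) and Map2k7 (0.113). For Ece2 they were Nrip2 (0.192) and Nap1l5 (0.217), of which Nap1l5 averaged 203 CPM in AD-HFD, 815 CPM in AD and 276 CPM in Sham. The glycine transporter gene Slc6a9 (0.399) and Myh6 (0.442) came closest to Mme, and Igsf11 (0.226) and Ankib1 (0.229) to Clu. Among the members themselves Ide and Picalm lay closest (0.329) and Ece1 and Ece2 farthest apart (2). All points share libraries and depth, so likeness is a description of these 12 libraries.

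**Figure D4:**
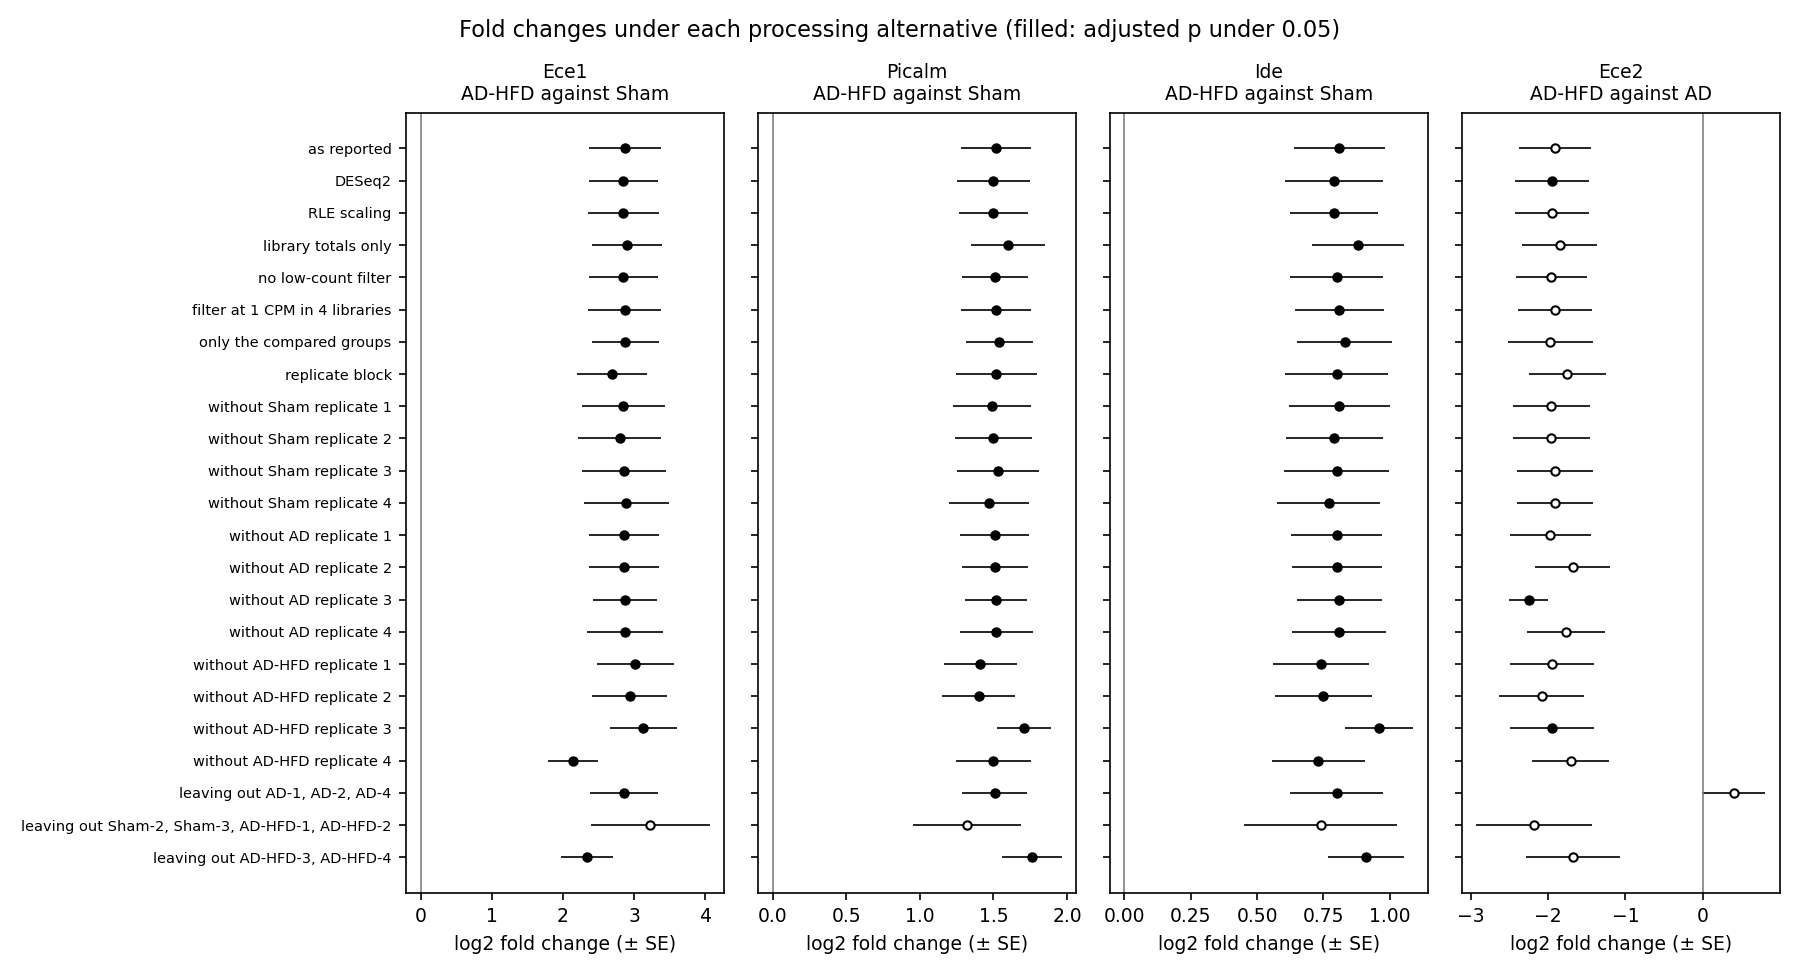
Log2 fold change ± SE of Ece1, Picalm and Ide in AD-HFD against Sham and of Ece2 in AD-HFD against AD, as reported and under each alternative; filled points have an adjusted p under 0.05. Ece1 lies between 2.14 and 3.23 throughout, and Ece2 changes sign, to 0.40, when AD-1, AD-2 and AD-4 are left out.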

How the data were processed

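Brain RNA of 12 libraries was sequenced, 4 per group, with groups and replicate numbers taken from the library names. Per the labels' protocols, TRIzol served for extraction and a Yeasen mRNA kit for the libraries. FastQC and Trimmomatic are named without versions in the submitters' processing notes. The aligner, counter, strand setting, genome build and annotation are not given in the sources used here. Raw counts were deposited by the authors as a single table, of which 22050 rows are Ensembl genes and 9127 are unnamed new loci, kept in library sizes and tests. No sample column was left unused.

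The test was that of edgeR 4.0.16 (R 4.3.3): filterByExpr on the groups, TMM scaling, and a non-legacy quasi-likelihood fit with 1 mean per group over all 12 libraries. The SE is the log2 fold change divided by the square root of F. Log2 CPM used a prior count of 2. The biological coefficient of variation common to all genes was 0.415. DESeq2 1.42.0, other scalings and filters, a replicate block and left-out libraries were the alternatives; counts of listed genes, and Ecel1, under them were added after seeing the data. Tests were checked on simulated counts. Every pair of libraries within a group differed by more than sampling noise.

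The members, lists and tests were chosen with earlier results of these data known. Related genes named are those called in a list, at most 6 by smallest p, or otherwise the 2 with the smallest p, and for each member the 2 genes most like it with a mean of at least 1 CPM; not all are printed, and 1 gene is not reported here. Counting error alone is covered by depth, since no molecular identifiers are described.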

Additional observations from a re-analysis of the deposited data

Results flagged for a closer look

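Of the values examined, 2 stood apart from the other 3 libraries of their group, among 21 sets of 4 examined, by a gap test. Chance passes it in about 1 of 20 sets where values spread normally, which was not tested. It was run on CPM and not on log2 CPM, where high values stand less far apart. Ece1 in AD-HFD-4 was at 789.5 CPM, against 255 CPM in the next library of the group and 149.6 CPM in the lowest. The same library had the highest endothelium and red blood cell marker means of all 12 (8.32 and 6.81 log2 CPM) and the lowest neuron marker mean (6.75). Clu in AD-3 was at 1565 CPM, against 1024 CPM in the next AD library and 962 CPM in the lowest. AD-3 differed from the other AD libraries in its thalamus marker mean as well (1.44, against 4.10 to 6.21 log2 CPM).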

How the results depend on the processing

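For AD-HFD against Sham the 3 calls (Ece1, Picalm, Ide) were made in all settings but 1. None was made, and 0 genes in all, when Sham-2, Sham-3, AD-HFD-1 and AD-HFD-2 were left out. Without both AD-HFD-3 and AD-HFD-4 there were 5, with Bin1 (-0.47) and Clu (0.81) added. The share of all genes called in that fit is not given here, so those 5 cannot be read against it. The count of members was 3 in each fit without 1 library, while the count over all genes went from 3514 to 8615, the latter without AD-HFD-3. For AD-HFD against AD the count of members was 0 with all libraries, 5 by DESeq2, 2 without both AD-HFD-4 and AD-HFD-3, and 0 to 5 over the fits without 1 library. The count over all genes there was 2, and 3138 by DESeq2, 0 on the compared groups alone, with AD-3 as the AD library left or without Sham-2, Sham-3, AD-HFD-1 and AD-HFD-2, 1896 without both AD-HFD-4 and AD-HFD-3, and 0 to 5841 over the fits without 1 library. For AD against Sham the count of members was 0, and 1 by DESeq2, 2 on the compared groups alone or without both AD-HFD-4 and AD-HFD-3, and 0 to 2 without 1 library. The count over all genes was 1174, and 2604, 2363 and 2801 in those 3 settings, 4 without Sham-2, Sham-3, AD-HFD-1 and AD-HFD-2, and 302 to 2329 without 1 library. The cause of these shifts was not tested, though fits that leave out several libraries have fewer samples.

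Signs changed when AD-4, AD-1 and AD-2 were left out together: Mme, Ece2 and Bin1 in AD against Sham gave -0.56, -1.02 and -0.03, and Ece2 and Clu in AD-HFD against AD gave 0.40 and -0.07. Clu in AD against Sham ran from -0.09, without AD-3, to 0.21 over the fits without 1 library. No other direction of a member changed. Libraries with the same replicate number did not deviate together (correlations of -0.317 to 0.095 over 12 pairs), so the numbers were not taken to pair samples. With the replicate number as a block the members called were 0, 0 and 3, as without it, and 851, 5 and 5156 genes were called for AD against Sham, AD-HFD against AD and AD-HFD against Sham. Depth limits Mme most, with 20 counts in AD-HFD-3.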
